A study of Mus musculus with 20 samples.

Results

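The conversion of squalene to cholesterol was followed through the mRNA of 9 enzymes, Sqle, Lss, Cyp51, Tm7sf2, Nsdhl, Hsd17b7, Ebp, Sc5d and Dhcr7, in the livers of mouse fetuses whose mothers had been nutrient-restricted. The enzymes were chosen by name as genes of the late pathway, with earlier results of these data known. They are 9 of the 26830 genes with at least a single count, and all 9 passed the filter on low counts, which kept 17573 genes for testing. The tested fetuses were 10 males from dams under maternal nutrient restriction (MNR), and 10 males from control dams served as the comparison. All were outbred CD-1 IGS mice at embryonic day 18.5, and the right liver lobe was sampled. Each group held 5 litters, lettered A to E, with 2 littermates each. The letters are shared between the groups but the dams are not. The sources used here do not give how severe the restriction was or when it began.

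Polyadenylated RNA was sequenced and counted per transcript. The counts of a fetus totalled 16703824 to 28016953 in the MNR group (median 19473938) and 14925778 to 27848100 in the control group (median 20016884). The least counted of the 9 genes in any fetus still had 677 counts and the most counted 6941, so counting error was small beside the spread between litters. Littermates share a dam and her diet, so their counts were summed and the litter was taken as the replicate (n = 5 each). Levels are in CPM, a gene's counts relative to the scaled library size. The log2 fold change (log2FC) of MNR over control is given with the standard error (SE) from edgeR's two-sided quasi-likelihood test, with p-values adjusted over all genes tested by the Benjamini-Hochberg method and a threshold of 0.05. In a piece of whole tissue, fewer cells of a type and less RNA per cell cannot be told apart.

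Cells make cholesterol from acetyl-CoA by way of mevalonate, farnesyl pyrophosphate and squalene, and the late pathway closes squalene into a ring system and trims it to cholesterol. The genes of the whole route are targets of SREBP-2, a transcription factor held in the endoplasmic reticulum while sterols are plentiful and released to the nucleus when they run low. SREBPs act at promoters together with NF-Y, which binds the CCAAT box. Fetal mouse liver makes sterol of its own, and it is at the same time a blood-forming organ.

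On the mm9 build, Sqle lies on chromosome 15 at 59146632 to 59162747, Lss on chromosome 10 at 75994333 to 76019883 and Cyp51 on chromosome 5 at 4081145 to 4104746. Tm7sf2 lies on chromosome 19 at 6062821 to 6068373, Nsdhl on chromosome X at 70163896 to 70203853 and Hsd17b7 on chromosome 1 at 171879666 to 171899372. Ebp lies on chromosome X at 7762455 to 7770638, Sc5d on chromosome 9 at 42062260 to 42072383 and Dhcr7 on chromosome 7 at 151009050 to 151034315. Apart from Nsdhl and Ebp, which lie far from each other on chromosome X, each gene is on a chromosome of its own. Exons of Tm7sf2 share 532 bases on the same strand with 1110014N23Rik, which had 7643 counts over the 20 fetuses, so the value of Tm7sf2 is uncertain to that extent. Lss shares 381 exonic bases with 4930483K19Rik on the opposite strand, which had 6 counts in all.

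Promoters are shown for members in which the bases after RefSeq's start occur in transcripts counted here. These windows run from 250 bases before to 50 bases after the RefSeq start, on build GRCm38.p6, and 8 of the 9 genes were found in the RefSeq table. Sqle is named only. Cyp51, Hsd17b7, Sc5d and the third of 3 Dhcr7 windows are printed because the first 35 transcribed bases lie in transcripts that held 83.8%, 91.6%, 58.7% and 79.0% of the gene's counts. These bases were sought anywhere in a transcript, so the shares do not show that those transcripts start there. The earlier Dhcr7 windows had 26.2% each, and a transcript can count for several windows. Ebp, with 45.9%, is added as the gene with the smallest difference between the groups. Each window is written 5′ to 3′ on its gene's strand, and capitals mark CCAAT and TCACNNCA on either strand (as ATTGG and TGNNGTGA where they lie on the other strand).
Cyp51 (chr5:4104648-4104947, minus strand): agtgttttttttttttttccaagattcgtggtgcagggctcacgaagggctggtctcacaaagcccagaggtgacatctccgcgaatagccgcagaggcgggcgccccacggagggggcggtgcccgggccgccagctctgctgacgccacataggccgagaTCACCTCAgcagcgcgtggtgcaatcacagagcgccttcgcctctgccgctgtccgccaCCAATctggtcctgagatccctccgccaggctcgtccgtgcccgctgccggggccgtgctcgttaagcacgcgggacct
Hsd17b7 (chr1:169969156-169969455, minus strand): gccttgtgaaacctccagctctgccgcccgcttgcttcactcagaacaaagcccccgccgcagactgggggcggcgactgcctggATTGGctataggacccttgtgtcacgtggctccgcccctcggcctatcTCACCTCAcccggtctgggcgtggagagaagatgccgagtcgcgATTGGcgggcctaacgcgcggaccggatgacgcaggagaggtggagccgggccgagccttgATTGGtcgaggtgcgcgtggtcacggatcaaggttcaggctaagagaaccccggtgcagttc
Sc5d (chr9:42264251-42264550, minus strand): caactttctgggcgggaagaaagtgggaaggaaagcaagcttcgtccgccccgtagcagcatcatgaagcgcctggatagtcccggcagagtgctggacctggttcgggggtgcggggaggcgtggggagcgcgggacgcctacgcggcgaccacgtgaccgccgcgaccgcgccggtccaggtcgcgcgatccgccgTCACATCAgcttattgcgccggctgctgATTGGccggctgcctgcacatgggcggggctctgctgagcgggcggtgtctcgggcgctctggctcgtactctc
Dhcr7 (chr7:143829964-143830263, plus strand): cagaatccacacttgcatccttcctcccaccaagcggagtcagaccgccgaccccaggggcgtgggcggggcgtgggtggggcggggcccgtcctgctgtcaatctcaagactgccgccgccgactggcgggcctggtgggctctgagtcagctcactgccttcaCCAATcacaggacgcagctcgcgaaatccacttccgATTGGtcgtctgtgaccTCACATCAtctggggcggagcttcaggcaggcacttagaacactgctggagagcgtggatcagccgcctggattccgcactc
Ebp (chrX:8193463-8193762, minus strand): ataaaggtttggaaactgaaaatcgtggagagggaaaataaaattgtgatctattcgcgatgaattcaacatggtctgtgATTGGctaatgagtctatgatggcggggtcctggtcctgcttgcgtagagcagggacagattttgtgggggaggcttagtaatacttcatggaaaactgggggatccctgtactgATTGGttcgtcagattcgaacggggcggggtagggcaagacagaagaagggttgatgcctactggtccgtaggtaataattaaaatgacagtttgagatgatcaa
In these windows TCACNNCA lies at -88 in Cyp51, -117 in Hsd17b7, -52 in Sc5d and -32 in Dhcr7, counted from the start to the first base of the match, and Ebp has none. The windows of Lss and Tm7sf2, not printed, have none either, and these genes had log2FC values of -0.61 and -0.36. Whether the motif goes with the size of the difference was not tested. A CCAAT box lies at -29 in Cyp51, at -24 in Sc5d, at -85 and -49 in Dhcr7, at -170 and -55 in Ebp, and at -165, -73 and -12 in Hsd17b7. CCAAT was present in 8 of the 10 windows, at least 1 for each of the 8 genes, and in 37.4% of all 32851 promoter windows of the table. TCACNNCA, a loose form of the sterol regulatory element, was present in 6 of the 10 windows of these 8 genes and in 13.8% of all windows. The windows with it belong to 5 genes, among them Nsdhl, whose bases after the RefSeq start were found in transcripts with 0.0% of its counts. The stricter TCACNCCAC, every copy of which also holds TCACNNCA, was present in 0 of the 10 windows and in 1.24% of all windows. The shares were not matched for base composition, and a match is a stretch of letters, not a shown binding site.

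All 9 late enzymes had lower mean mRNA levels in MNR than in control livers, from 20.01% lower for Ebp to 44.4% lower for Sc5d as fitted. A log2FC below 0 was found for 50.6% of all genes tested. In edgeR 0 of 9 passed the adjusted threshold, against 0.25% of all genes called lower and 0.666% called in either direction. At an unadjusted p under 0.05, 9 of 9 were lower, against 9.69% of all genes. With DESeq2 on the same litter sums, 7 of 9 were called lower, against 3.27% of all genes, and Sqle and Ebp were not (DESeq2 adjusted p = 0.101 and 0.115). The median log2FC of the 9 genes was -0.61, beside -0.0027 over all genes tested. The 9 were chosen with earlier results of these data known, so the counts set beside these shares are descriptive.

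**Figure D1:**
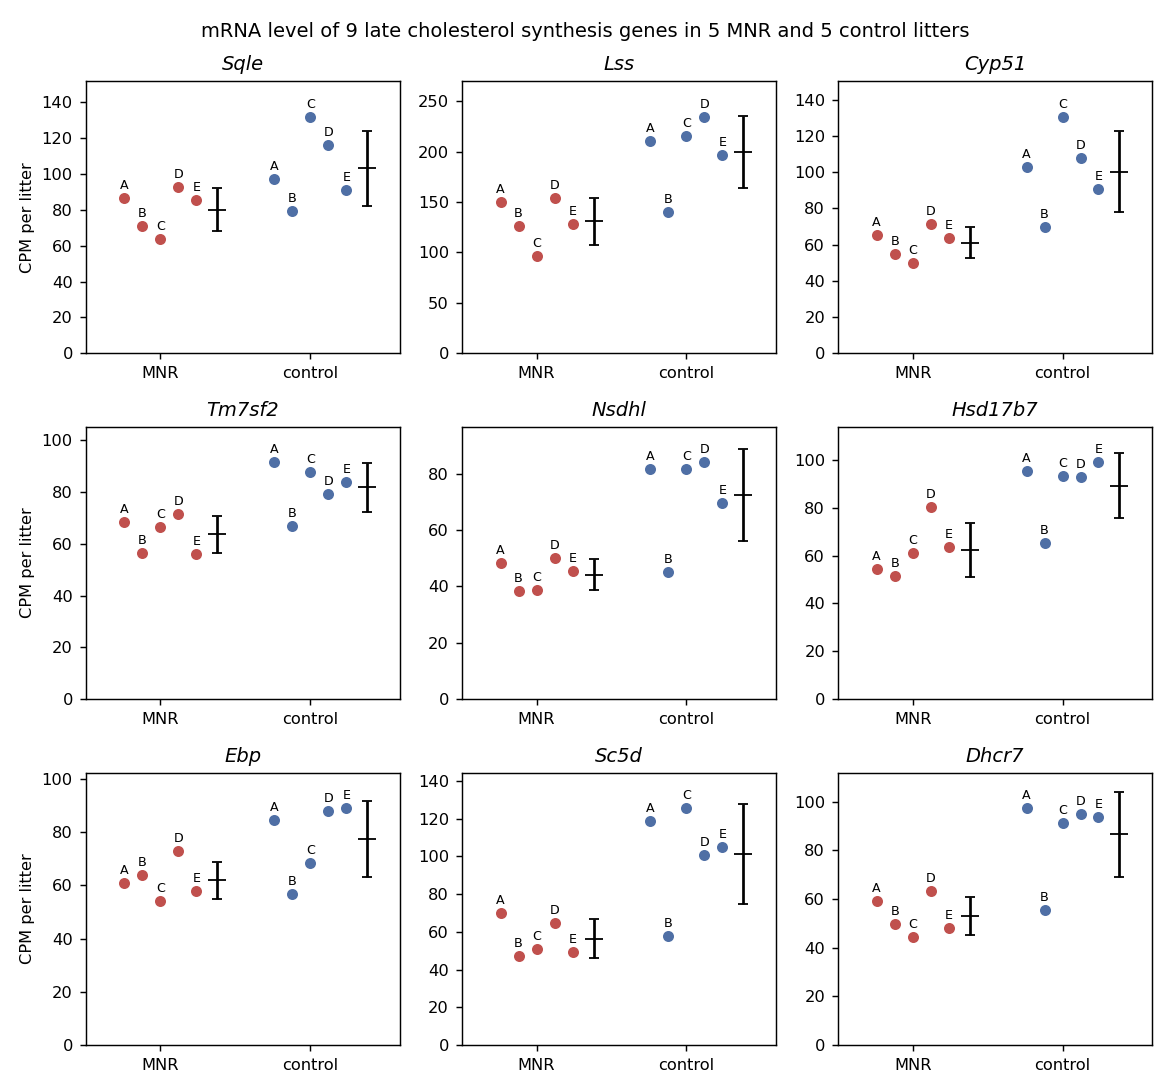
Level of each of the 9 genes in CPM (vertical axis, from 0) in 5 MNR and 5 control litters; each point is a litter, marked with its letter, and the bar beside the points gives mean ± SD. Control litter B is the lowest control litter in all 9 panels and lies within the range of the MNR litters in each.

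The entry into the late pathway is made by Sqle, the squalene epoxidase that puts the first oxygen on the molecule and is a control point of the route. Sqle had 86.5, 71.1, 63.9, 92.9 and 85.6 CPM in MNR litters A to E, against 97.3, 79.6, 132, 116 and 91.1 CPM in control litters A to E. The groups overlapped: MNR litters A, D and E lay above control litter B, and D also above control E. Sqle averaged 80.0 ± 12.0 CPM in MNR litters and 103 ± 20.9 CPM in control litters (SD, n = 5 each), a log2FC of -0.37 (SE 0.14, edgeR adjusted p = 0.178, 95% interval -0.67 to -0.06).

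Lss, the lanosterol synthase that folds the epoxide into the first sterol, was the most counted of the 9. It had 150, 126, 96.0, 154 and 128 CPM in MNR litters A to E, against 210, 140, 216, 235 and 197 CPM in control litters A to E. MNR litters A and D lay above control litter B, and all 5 MNR litters lay below the other 4 control litters. The means were 131 ± 23.1 CPM in MNR and 199.5 ± 35.8 CPM in control litters, with a log2FC of -0.61 (SE 0.15, edgeR adjusted p = 0.0685).

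Cyp51, the cytochrome P450 that demethylates lanosterol, had 65.3, 54.7, 50.1, 71.4 and 63.6 CPM in MNR litters A to E, against 103, 69.8, 131, 108 and 90.5 CPM in control litters A to E. Only MNR litter D reached above the lowest control litter, B. Cyp51 averaged 61.0 ± 8.56 CPM in MNR and 100.3 ± 22.5 CPM in control litters, and its log2FC of -0.72 had the smallest p of the 9 genes (SE 0.15, edgeR adjusted p = 0.0537, 95% interval -1.04 to -0.39). Tm7sf2, a sterol reductase that removes the double bond left by Cyp51, had 68.3, 56.3, 66.3, 71.4 and 56.2 CPM in MNR litters A to E, against 91.5, 67.0, 87.9, 79.4 and 83.9 CPM in control litters A to E. MNR litters A and D lay above control B and below the other control litters. Its log2FC was -0.36, with the smallest error of the 9 (SE 0.10, edgeR adjusted p = 0.0802).

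Nsdhl and Hsd17b7 work in turn on the methyl groups of the ring, Nsdhl as the decarboxylating dehydrogenase and Hsd17b7 as the keto reductase. Nsdhl had 48.4, 38.2, 38.9, 50.1 and 45.4 CPM in MNR litters A to E, against 81.8, 45.1, 81.6, 84.0 and 69.6 CPM in control litters A to E. Control B lay among the MNR litters, 3 of which exceeded it, and the other control litters stood apart from all 5 MNR litters. The log2FC was -0.71 (SE 0.15, edgeR adjusted p = 0.0569). Hsd17b7 had 54.6, 51.5, 60.9, 80.4 and 63.7 CPM in MNR litters A to E, against 95.5, 65.5, 93.3, 92.9 and 99.0 CPM in control litters A to E. Here MNR litter D stood above the other MNR litters and above control B, while the other 4 MNR litters lay below every control litter. The log2FC was -0.52 (SE 0.13, edgeR adjusted p = 0.0758).

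Ebp, the isomerase that shifts the double bond of the ring, had the smallest difference. It had 60.9, 63.8, 54.1, 72.8 and 57.9 CPM in MNR litters A to E, against 84.7, 56.6, 68.5, 88.0 and 89.1 CPM in control litters A to E. MNR litter C alone lay below every control litter. Ebp averaged 61.9 ± 7.08 CPM in MNR and 77.4 ± 14.3 CPM in control litters, a log2FC of -0.32 (SE 0.12, edgeR adjusted p = 0.186, 95% interval -0.59 to -0.05).

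The last steps belong to Sc5d, the lathosterol desaturase, and Dhcr7, the reductase that turns dehydrocholesterol into cholesterol and is deficient in human Smith-Lemli-Opitz syndrome. Sc5d had 69.9, 47.3, 50.8, 64.9 and 49.2 CPM in MNR litters A to E, against 119, 57.6, 126, 101 and 105 CPM in control litters A to E. MNR litters A and D exceeded control B, and the other control litters all lay above 100 CPM. Sc5d averaged 56.4 ± 10.3 CPM in MNR and 101.5 ± 26.5 CPM in control litters, the largest fitted difference of the 9 (log2FC -0.85, SE 0.19, edgeR adjusted p = 0.0587, 95% interval -1.26 to -0.44). Dhcr7 had 59.2, 49.9, 44.5, 63.3 and 48.2 CPM in MNR litters A to E, against 97.3, 55.3, 91.1, 95.1 and 93.5 CPM in control litters A to E. The 4 control litters other than B lay within a narrow band, and all 5 MNR litters lay below it. Its log2FC was -0.71 (SE 0.15, edgeR adjusted p = 0.0564).

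The 2 groups overlapped in all 9 genes, whereas 2.23% of all genes tested had every MNR litter below every control litter. The same litters recurred at the ends of the groups. Control B was the lowest control litter in 9 of 9 genes, and MNR D was the highest MNR litter in 8 of 9, the exception being Sc5d, where MNR A was highest. With control B set aside, all 5 MNR litters lay below the other 4 control litters in 7 of 9 genes, the exceptions being Sqle and Ebp. This reading was made after the values were seen. The share of all genes that separate in the same way without control B was not computed, so the 7 of 9 cannot be set against it. The mean log2 CPM over the 9 genes was 6.12, 5.87, 5.82, 6.25 and 5.98 in MNR litters A to E, against 6.71, 6.07, 6.75, 6.71 and 6.61 in control litters A to E.

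The fetuses of control litter B were the lowest pair of control fetuses, except for Sqle, Lss and Cyp51, where control E fetus 1 was below one of them. For Sqle fetus 1 of control litter B had 90.6 CPM, above control E fetus 1 with 74.0 CPM and control A fetus 1 with 89.3 CPM. Dhcr7 had 51.1 and 59.4 CPM in fetuses 1 and 2 of litter B, while the lowest of the other 8 control fetuses had 74.5 CPM. For Sc5d the values of litter B were 53.7 and 61.5 CPM, and the lowest of the other control fetuses had 77.6 CPM. Fetus 1 of this litter also carried the most pancreatic acinar mRNA, with a summed level of 431 CPM over 7 acinar markers, against a median of 25.3 CPM over all 20 fetuses. Its littermate had 23.1 CPM of the same markers, and its levels of Dhcr7 and Sc5d are those given above. MNR B fetus 1, with 191 CPM, and MNR E fetus 1, with 142 CPM, were the other fetuses above 5 times the median.

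When control litter B was left out, edgeR called 8 of the 9 genes lower, against 2.36% of all genes, and Sqle was not called (edgeR adjusted p = 0.0750). The smallest edgeR adjusted p was then 0.00319, for Nsdhl, and log2FC values ran from -0.42 for Ebp to -0.995 for Sc5d. Leaving out MNR litter D gave 6 of 9, against 0.961% of all genes. Control B was the lowest control litter in 9 of 9 genes and MNR D the highest MNR litter in 8 of 9. Leaving either out widens the gap between the groups in these same values, so these calls are no separate support. Leaving out any of the other litters gave 0 of 9 with edgeR, and over these subsets the log2FC values stayed below 0 for all 9. Without the 3 fetuses high in acinar markers, an alternative chosen after seeing the data, 5 of 9 were called lower (Cyp51, Nsdhl, Hsd17b7, Sc5d and Dhcr7), against 0.518% of all genes. Over all 24 alternatives, which include DESeq2 and limma-voom, the adjusted p ran from 0.000823 to 0.336 for Nsdhl, from 0.0343 to 0.569 for Sqle and from 0.0400 to 0.566 for Ebp. The 0.0343 came from edgeR with fetuses as separate libraries, which treats littermates as independent although they share a dam. No other alternative called Sqle, and its adjusted p was 0.101 with DESeq2 and 0.0915 with limma-voom.

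**Figure D2:**
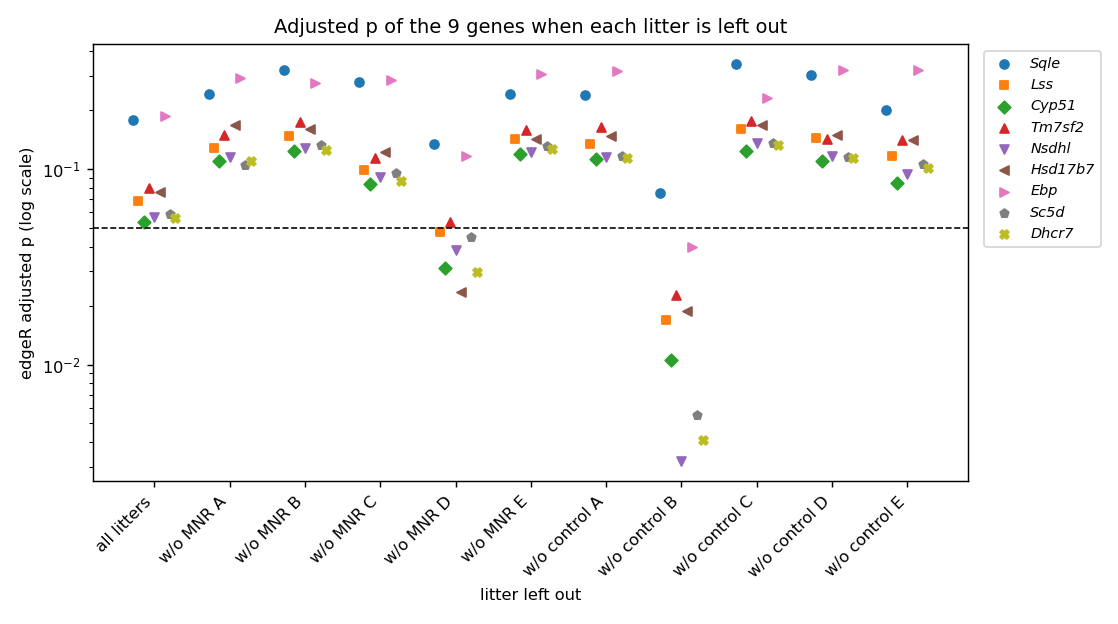
edgeR adjusted p (vertical log axis) of the 9 genes with all litters and with each litter left out in turn; each symbol is a gene and the dashed line is the threshold of 0.05. The points lie below the line only without MNR litter D (6 genes) and without control litter B (8 genes).

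Single fetuses gave a similar picture. For Sc5d the lowest, median and highest MNR fetus had 46.7, 51.6 and 70.5 CPM, against 53.7, 113 and 131 CPM in control fetuses. Nsdhl had 36.7, 42.8 and 53.1 CPM in MNR fetuses, against 42.3, 77.8 and 93.8 CPM in control fetuses. Cyp51 had 48.6, 62.8 and 75.4 CPM in MNR fetuses, against 63.7, 106 and 134 CPM in control fetuses. In each of these genes 8 of 10 control fetuses lay above every MNR fetus. Lss, Sqle and Ebp separated less: 7, 6 and 6 control fetuses lay above every MNR fetus. The share of all genes in which as many control fetuses do so was not computed, so these counts cannot be set against it. Littermates share a dam, so the fetuses are not independent.

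**Figure D3:**
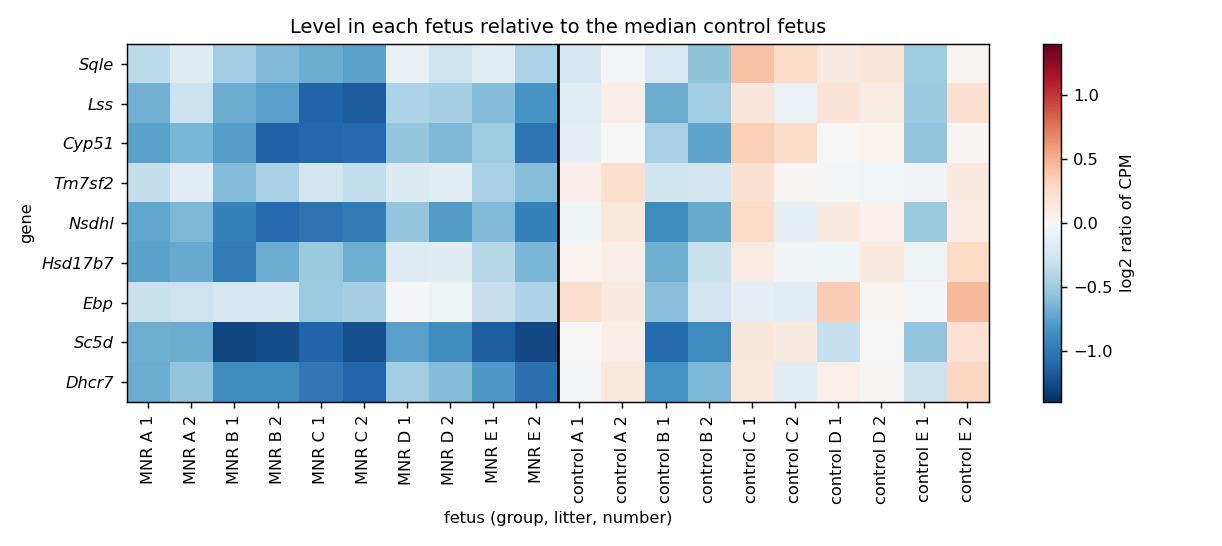
Log2 ratio of the CPM of each fetus to the median control fetus (colour, blue lower and red higher) for the 9 genes; MNR fetuses are left of the line and control fetuses right of it. Control B fetuses 1 and 2 are blue like the MNR fetuses, and control E fetus 1 is below its littermate in all 9 genes.

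The littermates of control litter E differed most. Sc5d was at 77.6 and 131 CPM in them, a gap of 0.76 on the log2 scale, and Lss was at 147 and 244 CPM, a gap of 0.73. This litter had the widest gap between littermates in 8 of 9 genes, and control B had it for Hsd17b7. The SD between littermates ran from 0.093 for Tm7sf2 to 0.21 for Lss (log2), and the SD of litter means within groups from 0.17 for Tm7sf2 to 0.36 for Sc5d. MNR litters varied less than control litters for Nsdhl, with SDs of 0.17 and 0.37, and for Sc5d, with SDs of 0.26 and 0.44 (log2), control B being part of the second value in each.

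Litters that were high in one of the 9 genes tended to be high in the others. After each group's mean had been removed, the correlation between 2 members over the 10 litters was above 0 in 36 of 36 pairs, with a median r of 0.75. It was highest for Sqle and Cyp51 (r = 0.96), followed by Nsdhl and Dhcr7 (r = 0.93) and Sc5d and Dhcr7 (r = 0.92). The lowest was that of Sqle and Ebp (r = 0.38). Dhcr7 and Nsdhl had the highest mean correlation with the other members (both 0.83) and Ebp the lowest (0.63). The points of a pair share library and dam, so these values are descriptive. Control B, the lowest control litter in 9 of 9 genes, is a low point in every pair. The correlations were not computed without it, and pairs of other genes were not examined.

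Of the 11449 genes averaging 5 CPM or more, the ones most like the 9 over the 20 fetuses, group means removed, were ranked by their correlation with the members' mean standardised level. With predicted and clone-based names passed over, the 8 highest were Slc25a1, the mitochondrial citrate carrier (r = 0.90), Idi1 (r = 0.89), Fdps (r = 0.88), Mgam, a maltase (r = 0.86), Dbi, the acyl-CoA binding protein (r = 0.86), Pmvk (r = 0.86), Acly, the ATP citrate lyase (r = 0.85), and Acsl3, an acyl-CoA synthetase (r = 0.84). Idi1, Fdps and Pmvk belong to the earlier part of the same pathway. The fetuses of control B enter these correlations too. Acsl3 alone among these 8 passed the test, with 21.2 CPM in MNR and 34.9 CPM in control litters (log2FC -0.72, edgeR adjusted p = 0.0262).

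The mevalonate pathway, which supplies squalene, also had lower mean levels in MNR livers. Of 8 tested genes, 8 had a log2FC below 0 and 1 passed, with a median of -0.61. Among all genes tested, 50.6% were below 0 and 0.25% were called lower. The gene that passed was Mvd, the mevalonate diphosphate decarboxylase, which fell to 11.1 ± 2.82 CPM in MNR litters, against 21.7 ± 4.63 CPM in control litters (log2FC -0.97, edgeR adjusted p = 0.0416). Acat2, the thiolase at the start of the route, had a log2FC of -0.35 and Pmvk, the phosphomevalonate kinase, of -0.68 (edgeR adjusted p = 0.0808 and 0.0867). The Hmgcs1 entry could not be matched and was not analysed here.

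The remaining late enzymes were less even. Of 4 tested, 0 passed in edgeR, and the median log2FC was -0.29. At an unadjusted p under 0.05, 3 were lower in MNR, against 9.69% of all genes. Msmo1 (Sc4mol), the methyl oxidase that works ahead of Nsdhl, had 61.0 ± 15.5 CPM in MNR and 81.9 ± 16.5 CPM in control litters (log2FC -0.43, edgeR adjusted p = 0.213), and Erg28 had a log2FC of -0.21 (edgeR adjusted p = 0.134). Lbr, the nuclear envelope protein with the same reductase activity as Tm7sf2, had 124 ± 9.28 CPM in MNR and 122 ± 19.5 CPM in control litters (log2FC 0.03, edgeR adjusted p = 0.909). The difference between Tm7sf2 and Lbr was not tested.

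Cyp51 takes its electrons from the reductase Por, and Sc5d and the methyl oxidase from cytochrome b5. Of 4 tested electron donor genes 0 passed in edgeR, and 2 had an unadjusted p under 0.05, 1 in each direction. Among all genes 9.69% were lower at that p. Por had 560.4 ± 93.7 CPM in MNR and 370 ± 66.3 CPM in control litters (log2FC 0.60, edgeR adjusted p = 0.0618). Cyb5b, the cytochrome b5 of the mitochondrial outer membrane, had 51.0 ± 7.49 CPM in MNR and 73.5 ± 12.2 CPM in control litters (log2FC -0.53, edgeR adjusted p = 0.0649). Cyb5r3, the cytochrome b5 reductase, and Pgrmc1 had log2FC values of -0.10 and 0.05, with edgeR adjusted p = 0.522 and 0.711. Cyb5a was not analysed here.

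Among 12 genes of SREBP regulation and sterol uptake, 1 passed, 6 were below 0 and 6 above, and the median log2FC was -0.04. At an unadjusted p under 0.05, 5 were lower and 1 higher in MNR, where 9.69% of all genes were lower. In edgeR 0.25% of all genes were called lower. Srebf1, the SREBP of fatty acid synthesis, fell to 109 ± 23.7 CPM in MNR litters, against 178 ± 19.7 CPM in control litters (log2FC -0.71, edgeR adjusted p = 0.0436). Srebf2, which encodes SREBP-2, had 85.3 ± 8.94 CPM in MNR and 92.2 ± 8.68 CPM in control litters (log2FC -0.11, edgeR adjusted p = 0.512). Stard4, a sterol carrier, had a log2FC of -0.31 (edgeR adjusted p = 0.0740), and Npc1, which exports cholesterol from lysosomes, one of 0.35 (edgeR adjusted p = 0.115).

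**Figure D4:**
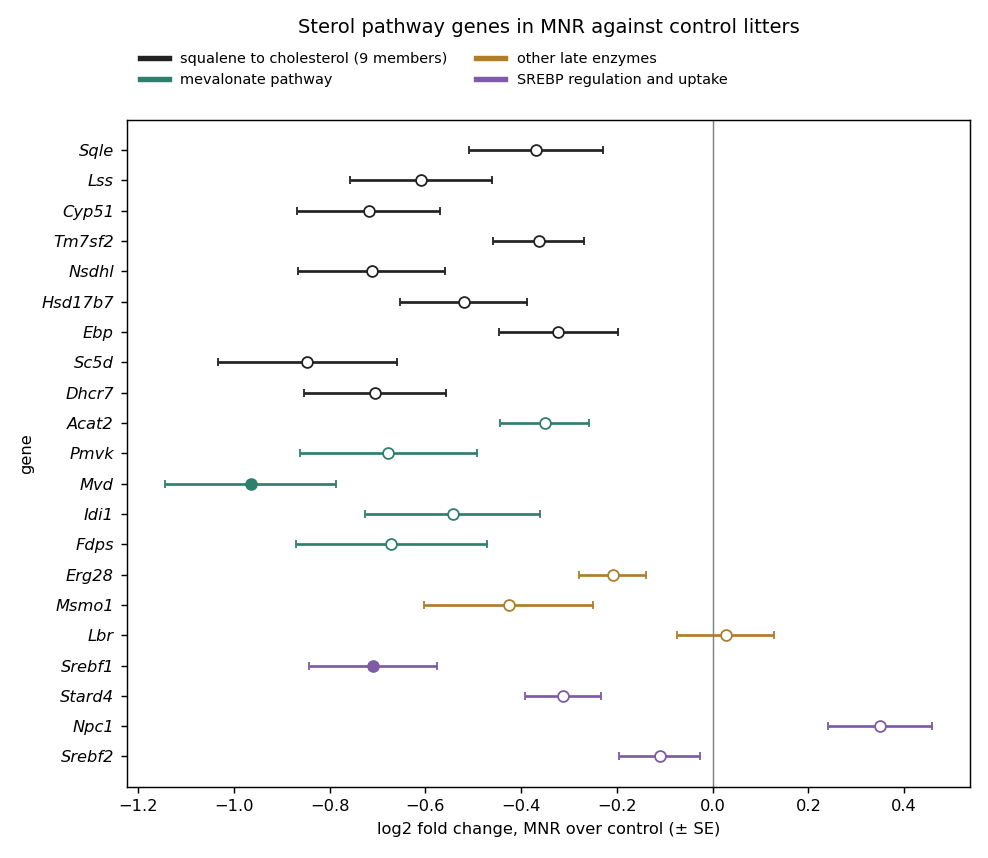
Log2 fold change of MNR over control (horizontal axis, ± SE, 5 litters a group) for the 9 late enzymes and for the genes named in the text from the mevalonate pathway, the other late enzymes and the SREBP list; filled points passed the edgeR threshold of 0.05. All 9 late enzymes and the mevalonate genes drawn lie left of 0 and, among the genes drawn, Mvd and Srebf1 are filled.

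Levels of different genes were compared per transcript length, in TPM, where counts per base of transcript are scaled to the same total in every fetus. Ebp and Tm7sf2 stood highest, with 88.8 ± 8.25 and 86.7 ± 10.4 TPM in MNR litters, against 111.5 ± 21.1 and 111 ± 13.97 TPM in control litters. Lss had 56.9 ± 9.37 TPM in MNR and 87.1 ± 18.2 TPM in control litters, Sc5d 42.9 ± 8.29 TPM in MNR and 77.6 ± 21.2 TPM in control litters, and Dhcr7 48.2 ± 7.18 TPM in MNR and 76.7 ± 16.2 TPM in control litters. Cyp51 had 41.8 ± 5.32 TPM in MNR and 67.0 ± 15.7 TPM in control litters. The lowest were Nsdhl, with 33.1 ± 3.85 TPM in MNR and 54.2 ± 13.0 TPM in control litters, Sqle, with 40.7 ± 5.56 TPM in MNR and 53.0 ± 11.8 TPM in control litters, and Hsd17b7, with 32.4 ± 4.64 TPM in MNR and 45.8 ± 7.34 TPM in control litters. In control litters the step from Tm7sf2 to Lss was the only one between neighbours in this order that exceeded both SDs. The order rests on how reads were split between transcripts: with the longest transcript as the length, Tm7sf2 stood first and Sc5d second in control litters.

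The mixture of transcripts hardly differed between the groups. Over the 24 transcripts that held at least 10% of a gene's counts, the mean share in MNR minus that in control litters ran from -1.42 to 0.84 percentage points. The leading Cyp51 transcript held 83.0% ± 1.56 of the gene's counts in MNR and 84.2% ± 0.744 in control litters. Transcripts annotated as retaining an intron held 70.7% of Lss counts and 41.4% of Ebp counts over all fetuses. Retention itself cannot be read from these shares, since the sources used here do not give how a read that matches several transcripts was counted.

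The tissue carried the markers of liver and of blood formation. The summed level of 10 hepatocyte markers was 147989 to 173988 CPM in MNR litters and 155488 to 179897 CPM in control litters, and that of 10 erythroid markers 31163 to 42354 CPM in MNR and 30237 to 47994 CPM in control litters. No marker of any list passed in edgeR, macrophage, endothelial, bile duct and acinar lists included. Of the lists, 10 of 10 erythroid markers (median log2FC -0.10) and 5 of 5 stellate markers (-0.29) were below 0, and 5 of 5 neutrophil markers (0.27) and 4 of 4 megakaryocyte markers (0.22) above. Among all genes tested, 50.6% were below 0. Neutrophil markers summed to 1089 to 1542 CPM in MNR and 910 to 1074 CPM in control litters. Megakaryocyte markers summed to 211 to 249 CPM in MNR and 194 to 241 CPM in control litters, stellate markers to 292 to 338 CPM in MNR and 301 to 369 CPM in control litters, and the acinar marker Pnlip alone of the markers had no count in any fetus. With the erythroid level as a covariate in edgeR, the log2FC values of the 9 enzymes ran from -0.24 to -0.81 and 0 of 9 passed, against 0.211% of all genes called lower. The part of the neutrophil, megakaryocyte and stellate markers in the result was not tested.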

How the data were processed

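The authors deposited raw counts per transcript, whole numbers in 1 table per fetus. The build mm9 and the tools Bowtie2, FastQC, edgeR and DESeq2 are named, per the submitters' processing notes. The sources used here do not give the counting tool, the use of strand or the treatment of reads with several matches. The series' table of gene values was not used here. Counts were summed per gene with GENCODE annotation of the same build. The 0.0788% to 0.154% of a fetus's counts on unmatched transcripts were left out. All pairs of fetuses in a group differed by more than sampling noise.

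Littermates were summed, and 5 MNR litters were compared with 5 control litters in edgeR 4.0.16 (R 4.3.3; filterByExpr with a minimum count of 10, TMM scaling, quasi-likelihood test). The procedure was also run on simulated data. Genes were drawn independently there, so genes that vary together or a litter that stands apart were not covered. CPM of litters and fetuses use TMM-scaled library sizes. TPM were computed from the transcript counts and annotated lengths. Correlations used log2 CPM with a prior count of 2. The alternatives used DESeq2 1.42.0, limma 3.58.1, other scalings, filters and thresholds, single fetuses, the litter letter as a block, an erythroid covariate and leaving out each litter. Levels per length were also computed with the longest transcript.

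The members, lists and markers were chosen with earlier results of these data known. All 9 members are named, of each other list up to 4 genes of smallest p (some are not reported here), of the SREBP list also Srebf2, which encodes its central factor, and the 8 genes most correlated with the members once predicted and clone-based names are passed over.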

Additional observations from a re-analysis of the deposited data

Results flagged for a closer look

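Control litter B stood apart from the other 4 control litters in 2 of the 9 genes. For Dhcr7 it had 55.3 CPM and the nearest control litter 91.1 CPM, a gap of 0.853 of the group's whole range. For Hsd17b7 it had 65.5 CPM and the nearest control litter 92.9 CPM, a gap of 0.817 of the range. Dixon's 95% critical value for 5 samples is 0.71. In all 18 groups were examined (9 genes in 2 groups), and chance flags about 1 in 20 of such groups; the 9 genes also vary together, so their flags are not independent.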

How the results depend on the processing

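All 9 log2FC values stayed below 0 in all 24 alternatives, and none reversed. Of 216 gene values, 151 stayed on the same side of the threshold and 65 moved past it. Among the 65 are 7 at the threshold of 0.1, where the fit was unchanged and only the threshold differed. The number of genes called and the number of members called lower, 117 and 0 as reported, were 2301 and 9 with fetuses as separate libraries, 1088 and 7 with limma-voom and litter as a random effect, 1163 and 7 with DESeq2, 499 and 6 with fetus 2 of each litter, 0 and 0 with fetus 1, 178 and 3 with upper-quartile scaling, 145 and 3 with no filter, 875 and 7 at a threshold of 0.1, and 215 and 5 without the fetuses high in acinar markers. Separate libraries treat littermates as independent although they share a dam. Called lower were 1074 of 16136 genes tested with separate libraries, 479 of 16136 with limma-voom and 507 of 15526 with DESeq2. With fetus 2 they were 217 of 16182, with upper-quartile scaling 110 of 17573 and with no filter 46 of 26830. At a threshold of 0.1 they were 380 of 17573, and without the fetuses high in acinar markers 91 of 17565. RLE or no scaling, the stricter filter and the erythroid covariate gave 109 to 136 genes and 0 members. Upper-quartile scaling put 38.2% of calls higher in MNR, beside 62.4% as reported. Leaving out a litter gave 0 to 843 genes and 0 to 8 members, the highest without control B and the next (512 and 6) without MNR D. With MNR A or control D left out 2 genes passed, with MNR C 30, and with MNR B, MNR E, control A, C or E 0. With the litter letter as a replicate block 232 genes and 4 members (Nsdhl, Hsd17b7, Sc5d and Dhcr7) passed, but the letters share no dam, and deviations of same-letter litters correlated at -0.0093 to 0.18 (r). Called lower with this block were 78 of 17573 genes tested.

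With the longest transcript as the length, levels moved by more than an SD to 32.9 TPM in MNR litters for Sqle, 34.4 in MNR and 52.4 in control for Lss, 28.6 in MNR and 47.1 in control for Cyp51, 37.5 in MNR for Nsdhl, 24.7 in MNR and 35.7 in control for Hsd17b7, 65.3 in MNR and 81.6 in control for Ebp, and 34.6 in MNR and 56.5 in control for Dhcr7.

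The p-values measure the spread of 5 litters a group; counts per gene do not limit the members, but read splitting between transcripts and the uncertain share of 1110014N23Rik in Tm7sf2 cannot be resolved here.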

Other observations

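Genes that store, export or convert cholesterol lay on both sides of 0. Of 14 tested genes of sterol efflux, esterification and bile acid synthesis, 0 passed in edgeR, 1 had an unadjusted p under 0.05, 9 lay above 0 and 5 below, and the median log2FC was 0.05. Cyp27a1, the sterol hydroxylase of the alternative bile acid route, had 122 ± 11.3 CPM in MNR and 83.0 ± 24.7 CPM in control litters (log2FC 0.56, edgeR adjusted p = 0.111). Soat1 and Soat2, which esterify cholesterol, had 89.8 ± 11.8 and 32.8 ± 3.60 CPM in MNR litters, against 72.0 ± 18.6 and 29.2 ± 3.09 CPM in control litters (edgeR adjusted p = 0.270 and 0.310). Abca1, the cholesterol exporter, had 288 ± 36.0 CPM in MNR and 261 ± 18.3 CPM in control litters (edgeR adjusted p = 0.416).

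Of 5 genes for the degradation of the enzymes, 0 passed in edgeR, and 3 had an unadjusted p under 0.05, of which 2 were lower and 1 higher in MNR. Among all genes 9.69% were lower at that p. Marchf6, the ubiquitin ligase that marks squalene epoxidase for destruction, had 134 ± 7.41 CPM in MNR and 120.2 ± 8.13 CPM in control litters (log2FC 0.15, edgeR adjusted p = 0.211). Syvn1, Faf2 and Rnf139 had log2FC values of -0.26, -0.14 and 0.04 (edgeR adjusted p = 0.132, 0.225 and 0.766).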
